A study of Mus musculus with 5 samples.

Results

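H3K27me3 peaks called in mouse embryonic fibroblasts (MEFs) expressing H3.3 K27M were described by position and sequence. The peaks chosen overlapped no peak called in MEFs expressing EZHIP and had no protein-coding gene start inside them. A peak was taken when it lay on chromosomes 1 to 19, shared no base with any EZHIP peak and held no protein-coding start site, the 5′ end of a protein-coding gene in the GENCODE annotation of mm9. Of 3736 peaks in the K27M list, 3338 were on these chromosomes, 847 of those overlapped no EZHIP peak (25.4%) and 587 also held no start site (17.6%). Overlap with EZHIP peaks and with start sites is thus what the 587 peaks were chosen by, and it is given below as a description.

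The study asked how EZHIP, a protein of PFA ependymoma, and H3.3 K27M, the histone mutant of diffuse midline glioma, change the genome-wide distribution of H3K27me3. All lines came from MEFs of an E13.5 embryo whose Eed gene carries loxP sites, and those analysed here were stably transduced by lentivirus with H3.3K27M, with H3.3K27R or with human EZHIP (hEZHIP). By the study's methods, the vector carried the EF1a promoter and transduced cells were selected with puromycin. In K27M and K27R the histone lysine that is normally methylated is replaced by methionine or arginine, and the K27R line served as the reference. Of 5 H3K27me3 ChIP-Seq libraries, the peak lists of K27M, EZHIP and K27R were used, with 1 library each, while the libraries of the parental and Eed-deleted cells are not analysed here.

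Polycomb Repressive Complex 2 (PRC2) places H3K27me3, a mark of silenced developmental genes. PRC2 is recruited at CpG islands, short stretches dense in the CG dinucleotide that often lie at gene starts, and from there the mark spreads when the EED subunit binds existing H3K27me3 and stimulates the enzyme EZH2. K27M and EZHIP both inhibit PRC2, and H3K27me3 found away from islands and starts is usually regarded as the spread part of a domain.

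The 587 peaks differed in CG density, and 5 windows of 300 bases are shown as examples with and without an island. They are the windows with the most CG in the 3 peaks with the longest CpG island and in the 2 widest peaks without an island, read from NCBIM37 (mm9) on the plus strand, with every CG in capitals. The Isl2 window lies over an exon of the gene inside an island, the Cux1 and Igf2bp1 windows overlap the upstream ends of islands that span the gene start, and the last 2 lie in no island and no protein-coding exon.
Isl2 gene body, chr9:55389912-55390211, plus strand: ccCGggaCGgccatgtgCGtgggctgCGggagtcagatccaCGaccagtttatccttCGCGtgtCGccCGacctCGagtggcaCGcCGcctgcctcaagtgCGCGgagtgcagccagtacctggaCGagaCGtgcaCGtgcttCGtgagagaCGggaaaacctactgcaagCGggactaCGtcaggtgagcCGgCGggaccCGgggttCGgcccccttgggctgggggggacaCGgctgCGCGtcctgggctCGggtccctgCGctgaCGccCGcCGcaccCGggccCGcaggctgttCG
Cux1 upstream side, chr5:137044623-137044922, plus strand: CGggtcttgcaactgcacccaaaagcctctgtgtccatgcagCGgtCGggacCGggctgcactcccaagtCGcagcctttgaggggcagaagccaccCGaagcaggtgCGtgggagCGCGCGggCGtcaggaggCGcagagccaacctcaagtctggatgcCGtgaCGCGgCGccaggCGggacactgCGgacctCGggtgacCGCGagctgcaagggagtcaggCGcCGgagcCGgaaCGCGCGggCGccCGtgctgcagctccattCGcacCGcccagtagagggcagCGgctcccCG
Igf2bp1 upstream side, chr11:95869003-95869302, plus strand: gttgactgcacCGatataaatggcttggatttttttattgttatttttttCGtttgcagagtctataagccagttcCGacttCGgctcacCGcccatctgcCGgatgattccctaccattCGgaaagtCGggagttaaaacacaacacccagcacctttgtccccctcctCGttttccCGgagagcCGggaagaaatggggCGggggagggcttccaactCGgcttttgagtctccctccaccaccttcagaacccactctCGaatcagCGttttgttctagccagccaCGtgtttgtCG
Irf8 distal, chr8:123384566-123384865, plus strand: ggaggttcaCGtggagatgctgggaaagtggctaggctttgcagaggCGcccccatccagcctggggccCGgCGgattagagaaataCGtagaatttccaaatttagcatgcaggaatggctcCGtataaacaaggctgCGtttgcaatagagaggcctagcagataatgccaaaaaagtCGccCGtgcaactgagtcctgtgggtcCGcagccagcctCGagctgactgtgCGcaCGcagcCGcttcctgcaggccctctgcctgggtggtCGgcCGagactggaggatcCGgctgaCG
Tcf21 distal, chr10:22715487-22715786, plus strand: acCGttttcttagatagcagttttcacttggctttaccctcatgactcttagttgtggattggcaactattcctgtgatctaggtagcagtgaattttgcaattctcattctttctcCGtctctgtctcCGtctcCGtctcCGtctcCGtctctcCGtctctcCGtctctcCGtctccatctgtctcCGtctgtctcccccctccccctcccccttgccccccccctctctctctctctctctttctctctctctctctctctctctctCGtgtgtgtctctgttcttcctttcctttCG
The Isl2 window held 36 CG and 70.3% G+C, and the Cux1 window held 33 CG at the same G+C. The Igf2bp1 window held 17 CG at 51.3% G+C. The window from the widest peak, beside Irf8, held 18 CG and the one beside Tcf21 held 12. Even at its richest point the Tcf21 peak thus had fewer CG than the island windows, and several of them sat in a short run of repeated cCGtct units.

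The lists gave positions on a grid of 200 bp bins and no heights, so the depth behind each call was unknown and no value could be set against replicate spread. Intervals below are 95% intervals that treat peaks as independent, exact binomial for shares and from order statistics for medians, and they cover counting error only. Start sites of 18 fibroblast genes were checked in the K27R regions as a check of the labelled cell type, and 1 of 18 (Pdgfra) was marked, against 9 of 10 genes of other cell types, among them Pax6, Sox10 and Myod1. Comparison sets on the same chromosomes were 1105 shared K27M peaks without a start site, which overlap an EZHIP peak, 260 K27M-only peaks over promoters, and 1570 EZHIP peaks that overlap no K27M peak and hold no start site.

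The 587 peaks were narrow. A wider peak is more likely to touch an EZHIP peak or to hold a start, so the rule itself favours narrow peaks. They spanned 1.2 to 43.8 kb with a median of 3.4 kb (interval 3.2 to 3.6 kb, quartiles 2.0 and 5.4 kb), and 41 had the smallest width of 1.2 kb. Together they covered 2.72 Mb, 6.42% of the length of all autosomal K27M peaks, although they were 17.6% of the peaks by number. Shared peaks without a start had a median of 5.4 kb (5.2 to 6.0), K27M-only promoter peaks 4.4 kb (4.0 to 4.8) and EZHIP-only peaks 2.6 kb (2.4 to 2.6), so the intervals of the medians did not overlap. The shortest gap between neighbouring peaks was 5.2 kb in the K27M list but 1.2 kb in the EZHIP list. Between these lists, closely spaced pieces were thus kept apart in the EZHIP list alone. In the K27R list the shortest gap was 0 kb, so abutting regions there were counted separately. The part of this in the widths and counts of peaks and regions was not tested. Widths of at least 10 kb were found in 50 of the 587 (8.52%, interval 6.39 to 11.1%) and in 329 of the 1105 shared peaks (29.8%, interval 27.1 to 32.6%).

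**Figure D1:**
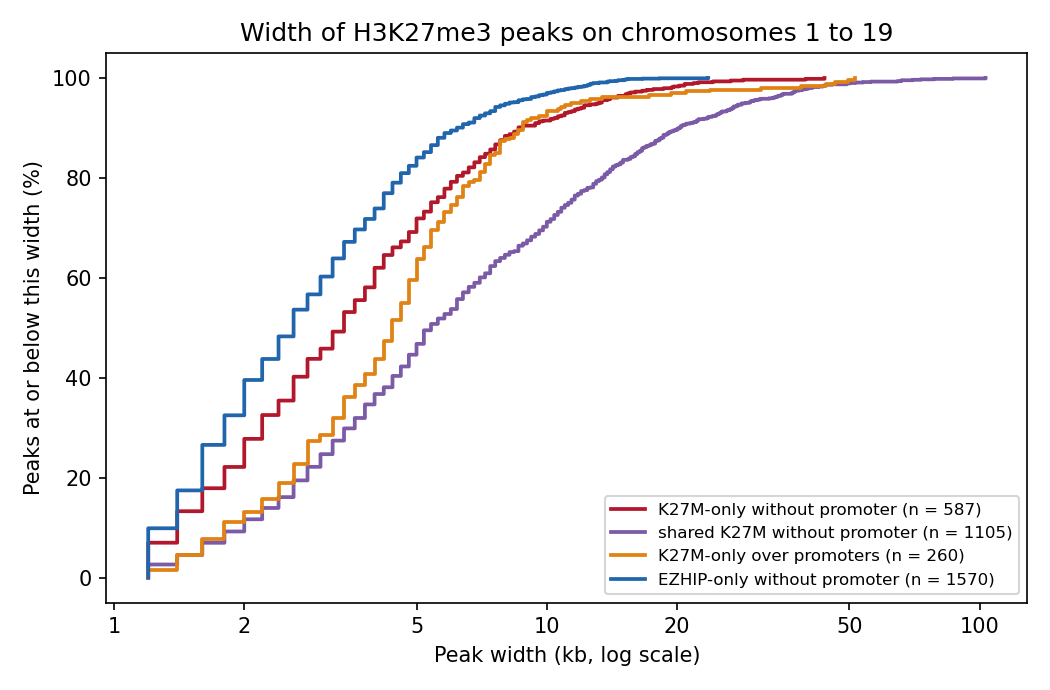
Share of peaks (%) at or below each width (kb, log scale) in the 4 sets of peaks on chromosomes 1 to 19, 1 step per peak. The curve of the 587 K27M-only peaks without a promoter lies between EZHIP-only peaks (median 2.6 kb) and shared K27M peaks (median 5.4 kb), with its own median at 3.4 kb.

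The 5 widest peaks held no island. The widest, 43.8 kb at chr8:123344601-123388400, lay 84.3 kb downstream of the start of Irf8, a transcription factor of blood cells, in a K27R region of 218 kb, and 12 kb from the nearest EZHIP peak. The next, 39.6 kb at chr10:22702401-22742000, lay 162.5 kb upstream of Tcf21, a regulator of mesenchymal and visceral development. The others were 28.4 kb near Tas1r2, a sweet taste receptor gene (chr4:139226801-139255200), 26.6 kb inside Cpvl (chr6:53877001-53903600) and 24.2 kb near Gm10858 (chr5:147717801-147742000).

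A CpG island was present in 124 of the 587 peaks (21.1%, interval 17.9 to 24.7%). For scale, windows of 3.4 kb tiled through K27R regions without a start site held an island in 2.92% of 134762 cases. EZHIP-only peaks held one in 65 of 1570 (4.14%, interval 3.21 to 5.25%) and shared K27M peaks in 323 of 1105 (29.2%, interval 26.6 to 32%). The difference between the 587 and the shared peaks was -8.11 percentage points (Newcombe interval -12.3 to -3.76). It was -16.5 points among peaks of at least 5 kb, and -4.42 points with an interval that included 0 (-8.77 to 0.18) when peaks within 10 kb of an EZHIP peak were not counted as K27M-only. With starts of all annotated protein-coding transcripts left out, in place of 1 start per gene, the share was 16.6%.

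The comparison was repeated within classes of width, since a wider peak can hold more islands. Below 3 kb, 60 of the 257 narrow K27M-only peaks held an island (23.3%, interval 18.3 to 29%), against 40 of 245 shared peaks (16.3%, interval 11.9 to 21.6%). From 3 to 6 kb the shares were 17.5% (interval 12.5 to 23.5%) and 20.1% (interval 16.0 to 24.8%). Only from 6 to 12 kb did the intervals separate, with 18 of 94 K27M-only peaks (19.1%, interval 11.8 to 28.6%) and 100 of 266 shared peaks (37.6%, interval 31.8 to 43.7%), while at 12 kb or more 11 of 36 (30.6%, interval 16.3 to 48.1%) and 115 shared peaks (44.9%, interval 38.7 to 51.2%) overlapped again. EZHIP-only peaks had lower shares than K27M-only peaks in each class, 2.92, 5.33, 7.59 and 3.57% from narrow to wide, with intervals that overlapped in the 2 widest classes.

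**Figure D2:**
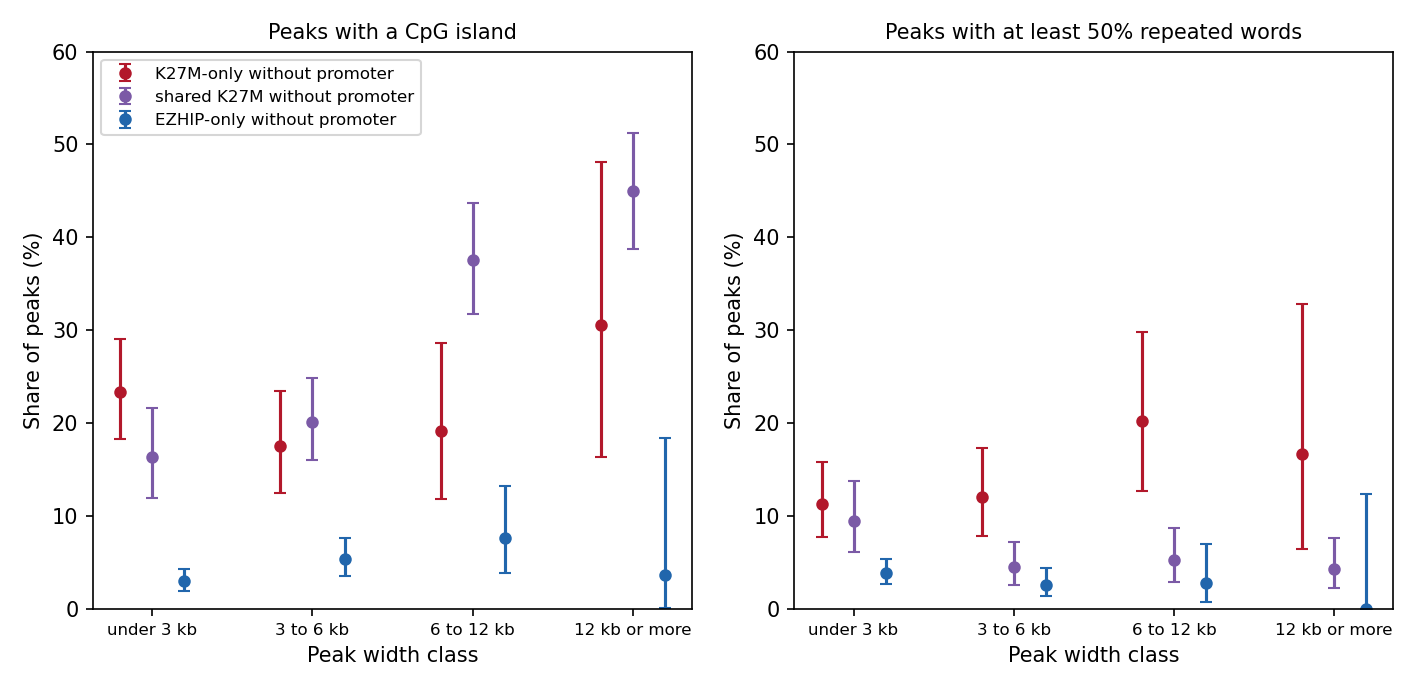
Share of peaks (%, with exact 95% intervals as bars) holding a CpG island (left) and having at least 50% repeated words, defined in the text (right), in 4 width classes of K27M-only, shared K27M and EZHIP-only peaks without a promoter. Below 3 kb the K27M-only island share is 23.3% beside 16.3% in shared peaks, and from 6 to 12 kb it is 19.1% beside 37.6%. The repeated-word share of K27M-only peaks is highest from 6 to 12 kb, at 20.2%.

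Over all bases, the 587 peaks had a median of 11.8 CG per kb (interval 11.3 to 12.5) and 47.9% G+C, where chromosomes 1 to 19 as a whole had 8.51 CG per kb and 41.9% G+C. The median was 13.2 CG per kb in shared peaks, 32.2 in K27M-only promoter peaks and 10.2 in EZHIP-only peaks. Around the centre of the 124 peaks with an island, the central 1 kb held 38.5 CG per kb, 3.29 times the 11.7 beyond 10 kb, a rise that the split by islands fixes. Around the centre of the 463 peaks without an island the same values were 11.1 and 11.2, a ratio of 0.989, a flatness that the same split favours. Without the split, the 587 peaks had 16.9 CG per kb in the central 1 kb and 11.3 beyond 10 kb. Their ratio of 1.49 was near that of shared peaks, 1.46. EZHIP-only peaks had a ratio of 1.03 and K27M-only promoter peaks one of 4.80.

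**Figure D3:**
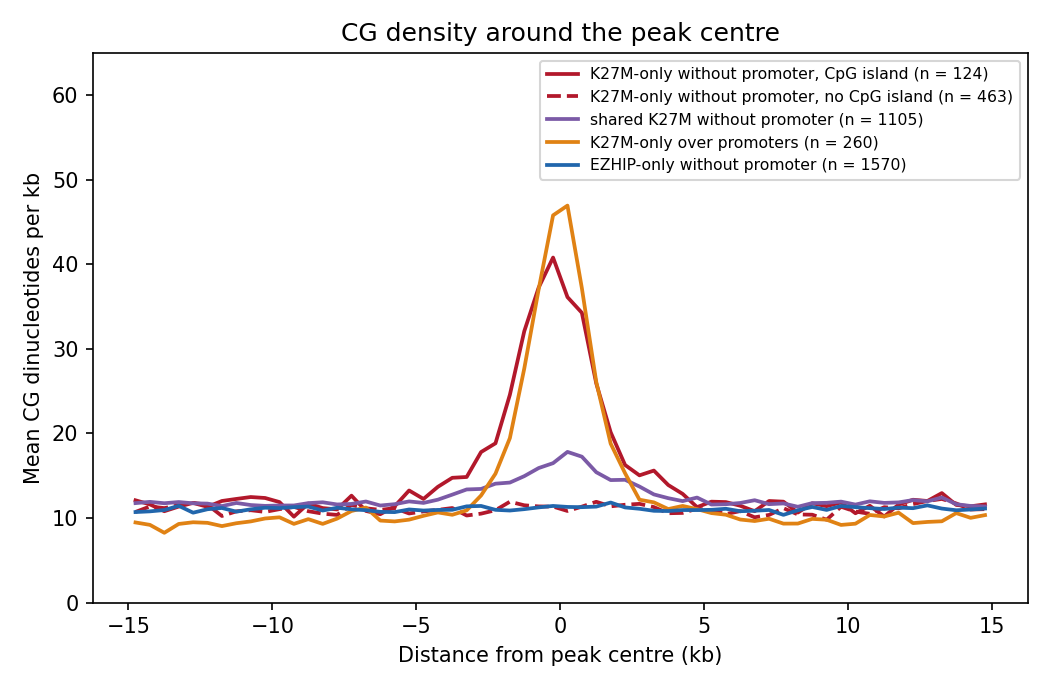
Mean number of CG dinucleotides per kb (vertical axis, from 0) against the distance from the peak centre (kb, bins of 500 bp), 1 line per set of peaks. K27M-only peaks without a promoter rise toward the level of promoter peaks (46.4 per kb over the central 1 kb) when they hold an island (38.5 per kb) and are flat when they hold none (11.1 per kb). This contrast follows from the split by islands.

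Of the 124 peaks with an island, 50 lay within 5 kb of a protein-coding start and 74 lay farther away. The 50 lay close beside gene starts, with a median width of 2.2 kb and a median distance of 0.53 kb (interval 0.33 to 1.10 kb) between peak edge and start. In 41 of 50 (82.0%, interval 68.6 to 91.4%) the peak lay on the downstream, transcribed side of the start, while over all 587 peaks the nearest start was upstream of 326 (55.5%, interval 51.4 to 59.6%). In 23 of 50 (46.0%, interval 31.8 to 60.7%) an island of the peak extended out to a protein-coding start, and 19 of 50 held the start of another annotated transcript of a protein-coding gene.

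The genes beside these 50 peaks included transcription factors, signals and receptors. Isl2, a homeobox factor of motor neurons, had a 7.6 kb peak (chr9:55387601-55395200) with the longest island of all, 4984 bp, 1.12 kb inside the gene. Mycn, a growth regulator of the Myc family, had a 1.4 kb peak (chr12:12947001-12948400) 0.32 kb from its start with an island of 3115 bp, and the nearest EZHIP peak was 1208 kb away. Ntrk2, the receptor of the neurotrophin BDNF, had a 2.8 kb peak 0.044 kb from its start, Hey2, a target of Notch signalling, a 4.2 kb peak 0.19 kb upstream, and Lefty2, a secreted antagonist of Nodal, a 1.2 kb peak 0.36 kb from its start. These last genes were chosen for mention after their values were seen. Neighbouring K27M peaks were at least 5.2 kb apart throughout the list, so that no second K27M peak could cover a start this close. Of all 103 peaks within 5 kb of a start, the start itself lay in a K27R region in 78 (75.7%), in an EZHIP peak in 2 and in a K27M peak in 0.

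At Cux1 and Igf2bp1 an island that spanned the gene start reached into a peak on its upstream side. At Cux1, a homeobox gene, a peak of 19.4 kb (chr5:137043801-137063200) ended 0.50 kb upstream of the start, and an island of 3620 bp at chr5:137041310-137044929 reached into its edge. At Igf2bp1, an RNA-binding protein gene, a peak of 1.6 kb (chr11:95869001-95870600) lay 1.75 kb upstream, and an island of 3340 bp at chr11:95865885-95869224 ended inside it. In both the rich window printed above came from the edge nearest to the gene.

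The 74 island peaks farther from a start had a median width of 3.9 kb and lay a median of 51.4 kb away (interval 35.9 to 62.9 kb). A protein-coding gene body overlapped 38 of them and a protein-coding exon 34, while 29 lay outside bodies and held no start of another gene. Their islands were shorter, with a median of 602 bp (interval 469 to 682 bp) against 955.5 bp (interval 668 to 1148 bp) near starts, and 57 of 74 peaks (77.0%, interval 65.8 to 86.0%) enclosed their islands, against 14 of 50 (28.0%, interval 16.2 to 42.5%). The rule sets part of this contrast, since a peak without a start cannot enclose an island that reaches one. Such islands were found at 23 of the 50 and at 0 of the 74. The longest was 3246 bp in a 17.6 kb peak over Unc45b, a myosin chaperone gene of muscle (chr11:82739001-82756600). Others lay inside Cacna1c, the pore subunit of an L-type calcium channel (7.0 kb, island of 1732 bp), Foxo6, a forkhead factor (6.8 kb, island of 1479 bp), and Adamts20, a matrix protease gene (5.2 kb, island of 1447 bp).

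The remaining 463 peaks held no island and had the same median width of 3.4 kb. They lay a median of 31.5 kb from a protein-coding start (interval 26.5 to 36.1 kb), and 53 were within 5 kb of one. A gene body overlapped 172 (37.1%, interval 32.7 to 41.7%) and an exon 87 (18.8%). Tiled K27R windows overlapped a gene body in 37.3% and an exon in 15.9%, so the body share of these peaks was near that background. Over all 587, a gene body overlapped 255 (43.4%, interval 39.4 to 47.6%) and an exon 161 (27.4%), and 94 of the 255 lay in introns alone. Of the 255, 10 lay in Gm20388, a read-through model over many genes. Most of these 10 overlapped no other protein-coding gene body and no exon.

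Nearly all peaks lay within K27R regions. Of 587, 564 overlapped one (96.1%, interval 94.2 to 97.5%) and 542 lay wholly inside (92.3%, interval 89.9 to 94.4%), while all 1105 shared peaks overlapped one and 98.5% (interval 97.5 to 99.1%) lay wholly inside. The regions of the 564 had a median width of 124.4 kb (interval 112.4 to 153.2 kb), against 175.6 kb (interval 165.8 to 187.0 kb) for shared peaks. For island peaks beside starts the median region was 30.2 kb, for far island peaks 80.8 kb and for peaks without an island 164.8 kb. Peak centres lay a median of 25.4% of the region's width from its nearer edge, beside 24.9% for shared peaks and 22.5% for EZHIP-only peaks.

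The K27R region of a peak often held residual H3K27me3 of both lines elsewhere. An EZHIP peak was present in the same region for 329 of 564 (58.3%, interval 54.1 to 62.4%), and another K27M peak for 373 (66.1%). By kind of peak, the region held an EZHIP peak for 9 of 46 island peaks beside starts (19.6%, interval 9.36 to 33.9%), 36 of 74 far island peaks (48.6%, interval 36.9 to 60.6%) and 284 of 444 peaks without an island (64.0%, interval 59.3 to 68.4%). These 3 kinds also differed in region width as given above, and its part in these shares was not tested. The nearest EZHIP peak lay a median of 58.2 kb away (quartiles 17.9 and 239.3 kb), with 25 peaks within 5 kb and 81 within 10 kb, and the nearest other K27M peak 26.2 kb away.

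Counted by region, 442 of 12093 autosomal K27R regions held at least 1 of the 587 peaks (3.66%). Of these, 360 held 1 and 82 held more, 233 also held an EZHIP peak and 209 held none. In 180 regions the peak was the single K27M peak and no EZHIP peak was present.

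The region with the most of these peaks spanned 787.4 kb at chr6:53663201-54450600, over Cpvl, a carboxypeptidase gene, Chn2, a Rac regulator, and the starts of Tril, Prr15 and Wipf3. It held 13 K27M and 5 EZHIP peaks, and 8 of the 13 were K27M-only without a start, 3.4 to 26.6 kb wide and 72.2 kb in sum, all without an island. Of the 8, 4 lay in Cpvl, which had no EZHIP peak in its body and whose start lay in the K27R region but in neither inhibitor list. The second region, 348.4 kb at chr10:22463201-22811600 around Tcf21, held 8 K27M and 5 EZHIP peaks. Its 5 K27M-only peaks ran from 1.2 to 39.6 kb and summed to 65.4 kb, and they lay 34.1 kb downstream and 80.5 to 263.1 kb upstream of the Tcf21 start, which itself lay in a shared peak. In both regions every EZHIP peak overlapped another K27M peak, and the K27M-only peaks lay between those shared ones or beside them.

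**Figure D4:**
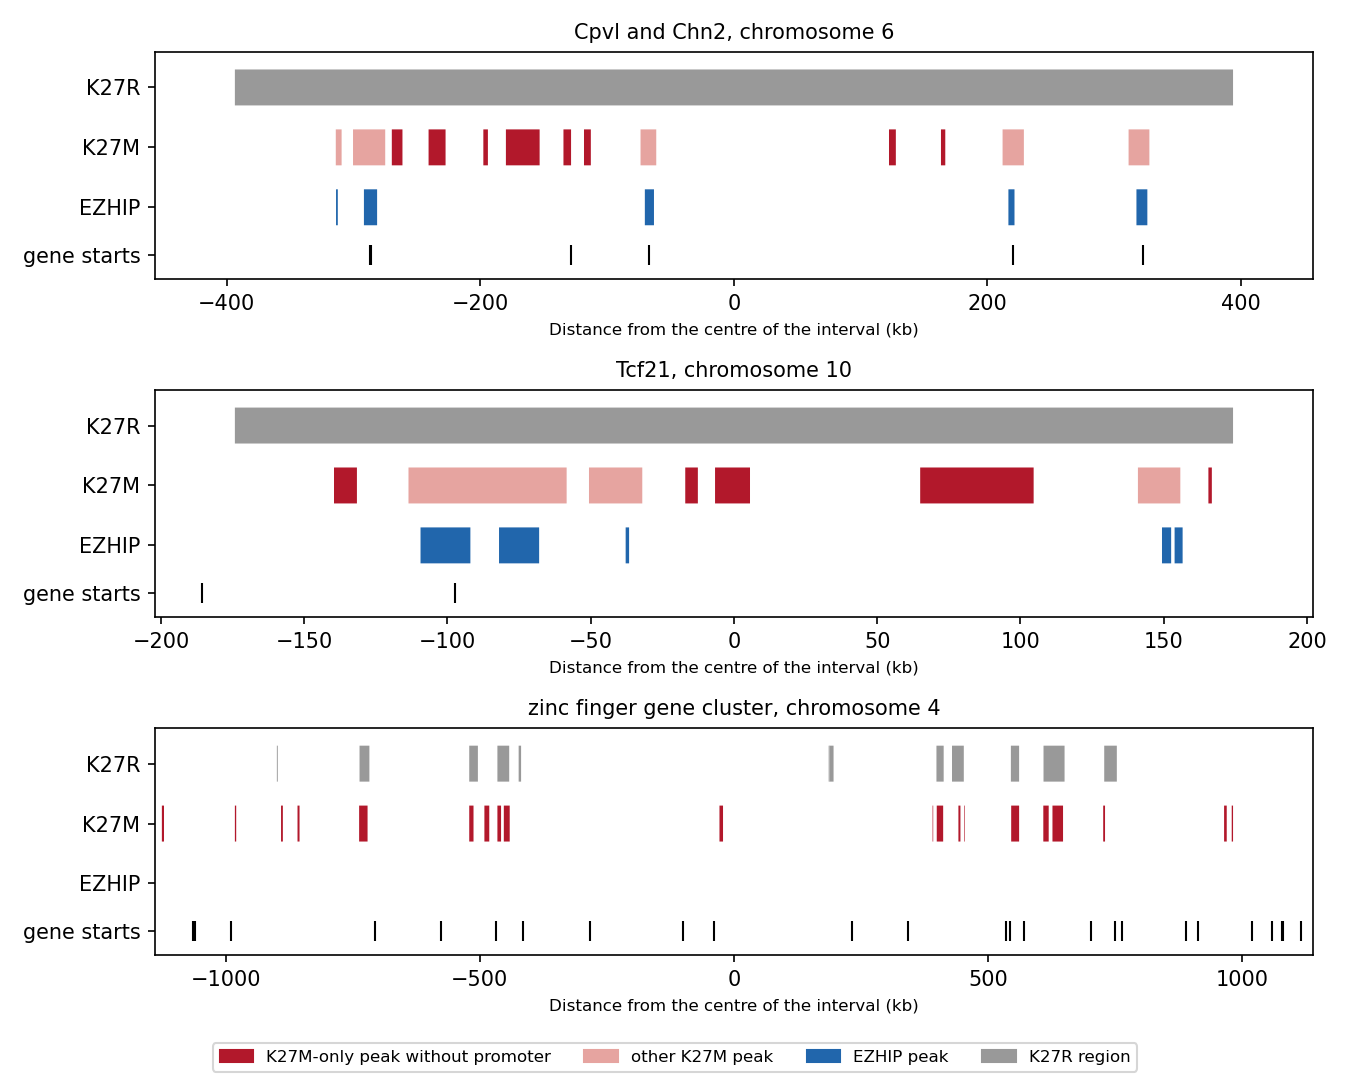
Maps of 3 intervals showing K27R regions (grey), K27M peaks (dark red for K27M-only peaks without a promoter, light red for the others), EZHIP peaks (blue) and protein-coding starts (black ticks) against the distance from the interval's centre (kb). The chromosome 6 and chromosome 10 intervals hold 8 and 5 K27M-only peaks between shared ones or beside them, and in the chromosome 4 interval all K27M peaks are K27M-only and no EZHIP peak is present.

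Counted by gene, 225 of 21418 autosomal protein-coding genes (1.05%) had at least 1 of these peaks in the body. Of these, 197 had 1, 22 had 2 and 6 had more, and the genes were long, with a median of 57.3 kb against 15.5 kb for all genes. The start of 170 of the 225 lay in a K27R region (75.6%), of 76 in a K27M peak (33.8%) and of 60 in an EZHIP peak (26.7%). Cdh23, a cadherin of the inner ear, held 3 of the peaks among 9 K27M and 7 EZHIP peaks, and Megf11, a receptor of retinal neurons, held 3 among 7 K27M and 13 EZHIP peaks. Mcf2l held 3 of 5 K27M peaks and 1 EZHIP peak. The gene with the most, Gm20388, is a read-through model of 4434.9 kb over many genes, and its 10 peaks are better read by neighbours such as Irf8, Foxf1a and Cbfa2t3.

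Gene groups known for Polycomb silencing were then counted, beside the 1.05% of all autosomal protein-coding genes. Among 173 homeobox genes, 6 held a peak (3.47%, interval 1.28 to 7.40%): Cux2, Dlx1, Isl2, Lmx1a, Otx1 and Pax5. Otx1, a head patterning factor, had the widest of them, 17 kb at chr11:21882601-21899600 from 3.30 kb inside the gene, and Dlx1, a forebrain factor, a 6.4 kb peak with an island of 296 bp. Of 138 other developmental factors 4 held a peak (2.90%, interval 0.80 to 7.26%): Foxo6, Prdm6, Runx3 and Tbx21. Among 97 secreted signals and receptors 1 did (1.03%, interval 0.03 to 5.61%), Bmp8a, with 1.6 kb and an island of 1012 bp. The intervals of other developmental factors and of secreted signals and receptors included 1.05%.

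Genes of neurons and of the cell surface had shares between 3.41 and 6.94%. Of 230 ion channel and neurotransmitter receptor genes 11 held a peak (4.78%, interval 2.41 to 8.40%), among them Cacna1c, the potassium channel gene Kcnma1 (4.4 kb) and the glutamate receptor gene Grin2d (4.2 kb, island of 1625 bp). The Grin2d peak lay 0.29 kb upstream of the start of another gene, Grwd1. Axon guidance genes had 5 of 72 (6.94%, interval 2.29 to 15.5%), with Ntng2 (14.0 kb), Sema5a, Sema5b and Sema7a, which encode semaphorins, and Unc5b, a netrin receptor gene. Adhesion genes had 3 of 88 (3.41%, interval 0.71 to 9.64%) and matrix genes 4 of 104 (3.85%, interval 1.06 to 9.56%), with Col13a1 and Adamts20. These shares stood above the 1.05% of all genes, although the adhesion interval included 1.05%. Channel, adhesion, guidance and matrix genes were also longer than the median gene (36.3 to 63.3 kb against 15.5 kb). Channel genes held 3.01% of all gene body length and 4.71% of the peaks in bodies, adhesion genes 2.42% and 1.96%, and homeobox genes, with a median length of 7.36 kb, 0.59% and 2.75%. The same values were 1.23% and 2.35% for guidance genes, and 1.10% and 1.96% for matrix genes. They were 0.78% and 1.96% for other developmental factors, and 0.68% and 0.39% for secreted signals and receptors. Olfactory and vomeronasal receptor genes held none (0 of 1433, upper limit 0.257%). Of 362 zinc finger genes named Zfp, 4 held a peak (1.10%, interval 0.30 to 2.80%), and 2 of their 4 peaks were in repeated sequence.

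The start of a gene that is not protein-coding lay in 34 of the 587 peaks (5.79%, interval 4.04 to 8.0%), against 1.92% of the tiled windows and 97 of 1105 shared peaks (8.78%, interval 7.18 to 10.6%). Processed transcripts started in 8 peaks, pseudogenes in 10, lincRNAs in 5 and ribosomal RNA genes in 4, which together held 15 such starts. Without the peaks of repeated sequence described next, 19 of 509 remained (3.73%, interval 2.26 to 5.77%).

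Part of the 587 peaks lay in sequence that occurs more than once in the genome. The share of 32-base words of a peak with another copy on either strand was counted, a measure chosen after the data were seen, and 78 of 587 (13.3%, interval 10.6 to 16.3%) had at least 50% repeated words. The share was 5.70% (63 of 1105, interval 4.41 to 7.24%) in shared peaks and 3.25% (51 of 1570, interval 2.43 to 4.25%) in EZHIP-only peaks. It was highest among K27M-only peaks of 6 to 12 kb, at 20.2% (interval 12.6 to 29.8%). The part of read placement in the calls at these 78 peaks was not tested.

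The 78 peaks were split from the other 509 by their repeated share, which therefore differed by construction (median 81.7%, against 2.35%), and they also differed in measures that the split did not use. A K27R region overlapped 66 of 78 (84.6%, interval 74.7 to 91.8%), against 498 of 509 (97.8%, interval 96.2 to 98.9%), and that region held an EZHIP peak for 16 of 66 (24.2%, interval 14.5 to 36.4%), against 313 of 498 (62.9%, interval 58.4 to 67.1%). These regions were also narrower, with a median of 55.6 kb against 147.6 kb, and the part of width in these shares was not tested. The nearest EZHIP peak lay a median of 382.8 kb away, against 48.6 kb, and CG density was 8.22 against 12.5 per kb. An island was present in 6 of 78 (7.69%) and in 118 of 509 (23.2%).

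Many of the 78 sat in a few clusters of duplicated genes. The largest, 1963.4 kb at chr4:145182401-147145800 over zinc finger genes such as Zfp600, Zfp534 and Rex2, held 19 K27M peaks, all of them K27M-only without a start, and no EZHIP peak. Of the 19, 15 had at least 50% repeated words, and 8 of those 15 lay outside every K27R region. A cluster at chr17:13443201-14179200 around Smok4a, a testis kinase gene, and Tcte2 held 10 repeated peaks of 13 K27M peaks beside 4 EZHIP peaks. At chr1:84987201-85343600 around C130026I21Rik there were 9 K27M peaks and no EZHIP peak. The 7 of these without a start site had 87.8 to 99.3% repeated words, and 1 of them had words with a median of 1463 copies. At chr5:146316801-146520000, over the cytochrome genes Cyp3a41a and Cyp3a41b, all 4 K27M peaks were K27M-only, and at chr8:126089801-126153800 3 peaks covered the array of 5S ribosomal RNA genes, with a median copy number of their words between 9 and 49.

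Only 23 of the 587 peaks touched no K27R region. They were 1.2 to 9.6 kb wide with a median of 2.6 kb, and 12 of 23 (52.2%, interval 30.6 to 73.2%) had at least 50% repeated words. Among the rest, 4 held an island and lay 0.18 to 1.11 kb from the start of Epb4.1l1, Dhrs3, Stac2 or Ptprs, a receptor phosphatase gene, and 2 peaks of 5.8 and 5.4 kb stood 13.9 kb from Ube2q2 and 23.1 kb from Fbxo22. These genes were named after their values were seen. At these loci the mark was called in the K27M line and in neither of the other lists.

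By chromosome, K27M-only peaks without a start made up 5.59 to 25.7% of the K27M peaks. The highest share was on chromosome 4 (71 of 276, 25.7%, interval 20.7 to 31.3%), followed by chromosome 8 (49 of 196, 25%, interval 19.1 to 31.7%), and the lowest on chromosome 15 (8 of 143, 5.59%, interval 2.45 to 10.7%) and chromosome 3 (9 of 110, 8.18%, interval 3.81 to 15.0%). When repeated peaks were left out of the count, chromosome 4 fell to 19.6% and chromosome 17 from 15.0 to 8.92%, chromosome 6 had the highest share at 21.2%, and chromosome 15 was still lowest at 4.90%.

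Far from any EZHIP peak, a 13.8 kb peak at chr16:78360001-78373800 over Btg3, an antiproliferative gene, and Cxadr, the gene of a virus and adhesion receptor, was 6188 kb away, the largest distance among peaks of at least 5 kb. It lay at the edge of a 42.6 kb K27R region and was the single K27M peak there. The next, 5.8 kb at chr8:51999201-52005000 with an island of 563 bp, was 3497 kb from EZHIP and 1543 kb from a start. The others were 7.0 kb at chr12:20232801-20239800, 9.4 kb at chr8:56199201-56208600 near Gpm6a with 90.3% repeated words, and 10.8 kb at chr1:85157201-85168000 in C130026I21Rik with 91.5%.

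At the limits of the selection, peaks close to an EZHIP peak included 4.8 kb in Ptk6 at 0.4 kb and 1.2 kb near Art2b at 0.4 kb. Just outside were peaks of 4.2, 1.2 (in Nfasc) and 1.8 kb (near Six6) that shared 200 bp, a single bin, with an EZHIP peak. For start sites, peaks at Apba2, Gria4 and Arpp21 lay 9, 34 and 42 bp beyond the start, and peaks at Cadps, Ahdc1 and Gramd1b were left out because the start lay 8, 26 and 33 bp inside their edge. The nearest start lay within 1 kb of 48 peaks and within 100 kb of 503.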

How the data were processed

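Crosslinked chromatin of each line was digested with MNase and immunoprecipitated for H3K27me3 (per the labels). According to the methods of the study, the authors mapped reads with bowtie1 (version 1.0.0 in the submitters' processing notes) to mm9 and a spike-in genome, and broad peaks were called with MOSAiCS-HMM, which joins regions across a maximum gap and drops short ones. The default of bowtie1 reports 1 place for a read that matches several, so calls in repeated sequence are uncertain. The shortest gaps in the lists, 5.2 kb for K27M, 1.2 kb for EZHIP and 0 kb for K27R, were below the maximum gap that the study gives. It is thus not known if the lists were called with those settings. Whether spike-in scaling entered the calls, and the background used, are not given in the sources used here.

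The deposited lists held chromosome, start and end and no height, score or p-value, so depth is unknown. The lists were used as positions, shown counting from 1. Overlap meant at least 1 shared bp. Genome and genes were NCBIM37 (mm9) and GENCODE vM1, with 21418 protein-coding genes on chromosomes 1 to 19. CpG islands had to exceed 200 bp, an observed to expected CG ratio of 0.6 and reach 50% G+C, and were found by scoring 17 per CG and -1 per other base (27402 islands, repeats not masked). Each line had 1 library, so no test was run. Interval and island code was tested on simulated data.

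The peaks, gene lists and alternatives were chosen with earlier results of these data known. Peaks were named as the 5 widest, the 5 with the longest island, the 5 farthest from EZHIP peaks of at least 5 kb, those in the 6 genes and 3 K27R regions with the most, and the 3 widest in each of 9 gene lists. The parental and Eed deletion libraries were not analysed here. Scripts ran in Python 3.11.15 with scipy 1.17.1, pandas 2.3.3 and numpy 2.4.6. A peak at the limit of the selection is not reported here.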

Additional observations from a re-analysis of the deposited data

Results flagged for a closer look

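Chromosome X lay outside the chromosomes described above. There, 312 of 398 K27M peaks overlapped no EZHIP peak and held no protein-coding start (78.4%, exact interval 74.0 to 82.3%), where the share on chromosomes 1 to 19 was 17.6%. The EZHIP list had few peaks on X: 4890 of its 4992 lay on chromosomes 1 to 19, against 3338 of 3736 for K27M and 12093 of 12845 for K27R. The part of this in the X share was not tested. The X peaks had a median width of 6.7 kb, 21 of them (6.73%) held an island and 18 had at least 50% repeated words. The difference in share between X and chromosomes 1 to 19 was not tested, since each line had 1 library.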

How the results depend on the processing

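Of 67 recomputed values over 9 results, 40 stayed near the main value and 27 moved. Staying near meant within the counting error of the main value. For the number of peaks, which has no such error, it meant within 1.5 times of it (484 to 797 peaks). Only the island difference to shared peaks could change sign, and it did so in 0 of its 8 recomputed values. Counting only peaks of at least 5 kb left 181 peaks, with a median width of 7.2 kb, other gene starts in 13.3%, a start distance of 34.1 kb and an island difference to shared peaks of -16.5 percentage points. With chromosome X there were 899 peaks, with a median of 4.0 kb, islands in 16.1%, a region with an EZHIP peak in 67.3%, other gene starts in 8.45%, a start distance of 34.7 kb and an island difference of -13.4 points. Requiring 50% cover to count a peak as shared gave a median of 4.2 kb and a region with an EZHIP peak in 69.6%. Leaving out peaks with a start within 5 kb gave islands in 15.3%, gene bodies in 37.4%, a region with an EZHIP peak in 63.9% and a start distance of 37.6 kb, and using starts of all transcripts gave 16.6% and 38.9% for islands and bodies. Islands of at least 500 bp were in 14.1%. With no EZHIP peak within 10 kb, a region with an EZHIP peak was found for 51.3%, and the interval of the island difference included 0 as given above. Means in place of medians gave 4.64 kb for width and 59.8 kb for start distance. Leaving out peaks of repeated words, chosen after seeing the data, gave 97.8% in K27R regions, 62.9% with an EZHIP peak in the region and 3.73% with another gene's start. No replicate could be left out, and no paired analysis was possible because each line had 1 library. Depth was unknown, so a site missing from the EZHIP list is not shown to lack the mark.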

Other observations

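Of all 3338 autosomal K27M peaks, 587 (17.6%) were K27M-only without a start, 1105 shared without a start and 260 K27M-only over promoters. The rest were shared peaks over promoters, the largest set among all K27M peaks. For 218 of the 587 peaks (37.1%) the nearest other K27M peak was a shared peak over a promoter. For 164 (27.9%) it was another K27M-only peak without a start, for 157 (26.7%) a shared peak without a start, and for 48 (8.18%) a K27M-only peak over a promoter. Runx3, a transcription factor of blood and skeletal cells, had a 6.6 kb peak without an island 17.6 kb inside the gene. A 5.0 kb peak with an island of 604 bp lay in the body of Zfp423, a zinc finger factor of fat and neural precursors.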
